A study of Mus musculus with 6 samples.

Results

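The transcripts of 10 genes of the NF-kB system were followed in mouse bone marrow. They were 5 genes of the transcription factor itself (Nfkb1, Nfkb2, Rel, Rela and Relb, called subunits here) and 5 genes of inhibitors that the factor is known to induce (Nfkbia, Nfkbiz, Nfkbid, Nfkbie and Tnfaip3). The members were picked by gene symbol from 56496 genes in the deposited table, with earlier results of these data known. They took up 71 of its 158850 transcripts. All 10 averaged 1 TPM or more and so were among the 14192 genes tested. TPM is the reads of a transcript per transcript length, scaled to the same total in each library. Levels can thus be set side by side between genes, as far as the assignment of reads to transcripts holds.

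Bone marrow cells were taken from female BALB/c mice whose 4T1 tumour had been removed by surgery (4T1 is a mammary carcinoma line of the mouse). Mice of the Onway group (3 libraries, Onway 1, Onway 2 and Onway 3) received Onway by gavage for 2 weeks. Mice of the Control group (3 libraries, Control 4, Control 5 and Control 6) had the same tumour surgery and no Onway. The labels give day 14 for Onway and day 0 for Control, so the effects of treatment and of labelled day cannot be told apart, and they name no modified gene. The composition of Onway was not given in the sources used here and neither was its dose. The labelled extraction text also describes a culture medium with dexamethasone, isobutylmethylxanthine, insulin and serum, and whether it was used on these cells is not given. Nothing in the labels says that the libraries of a group stem from separate mice. The p-values therefore measure only how these libraries spread, which may be technical.

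NF-kB proteins act as dimers that bind DNA and switch on genes of inflammation, survival and white blood cell development. In resting cells, IkB proteins such as the product of Nfkbia hold the dimers in the cytoplasm. Signals from cytokine and microbe receptors lead to breakdown of the IkB proteins, the dimers enter the nucleus, and among the genes they switch on are their own inhibitors, which closes a feedback loop. In marrow, neutrophils and monocytes are among the cells in which this pathway is well known.

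Every member had a higher mean in Onway than in Control, but none passed the test. With limma and Benjamini-Hochberg adjustment over all tested genes, 0 of 10 members were called at an adjusted p under 0.05, against 0.233% of all tested genes called higher and 2.99% called lower. At an unadjusted p under 0.05, 7 members were higher and 0 lower, against 4.95% of all tested genes higher and 8.42% lower. For 7 members all Onway libraries lay above all Control libraries, against 6.95% of all tested genes. The median log2 fold change was 0.44 for the subunits and 0.79 for the inhibitors, beside 0.03 for all tested genes, of which 53.6% had a positive value. Without Onway 3, 2 inhibitors passed the test, Nfkbiz (log2 fold change 1.90, adjusted p = 0.03) and Nfkbid (1.05, adjusted p = 0.025), against 0.507% of tested genes called higher and 1.79% lower. With Control 4 also left out, the same 2 passed, against 0.691% called higher and 1.5% lower. All log2 fold changes are differences of mean log2(TPM + 1), Onway minus Control, a scale that shrinks the folds of genes close to 1 TPM.

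**Figure D1:**
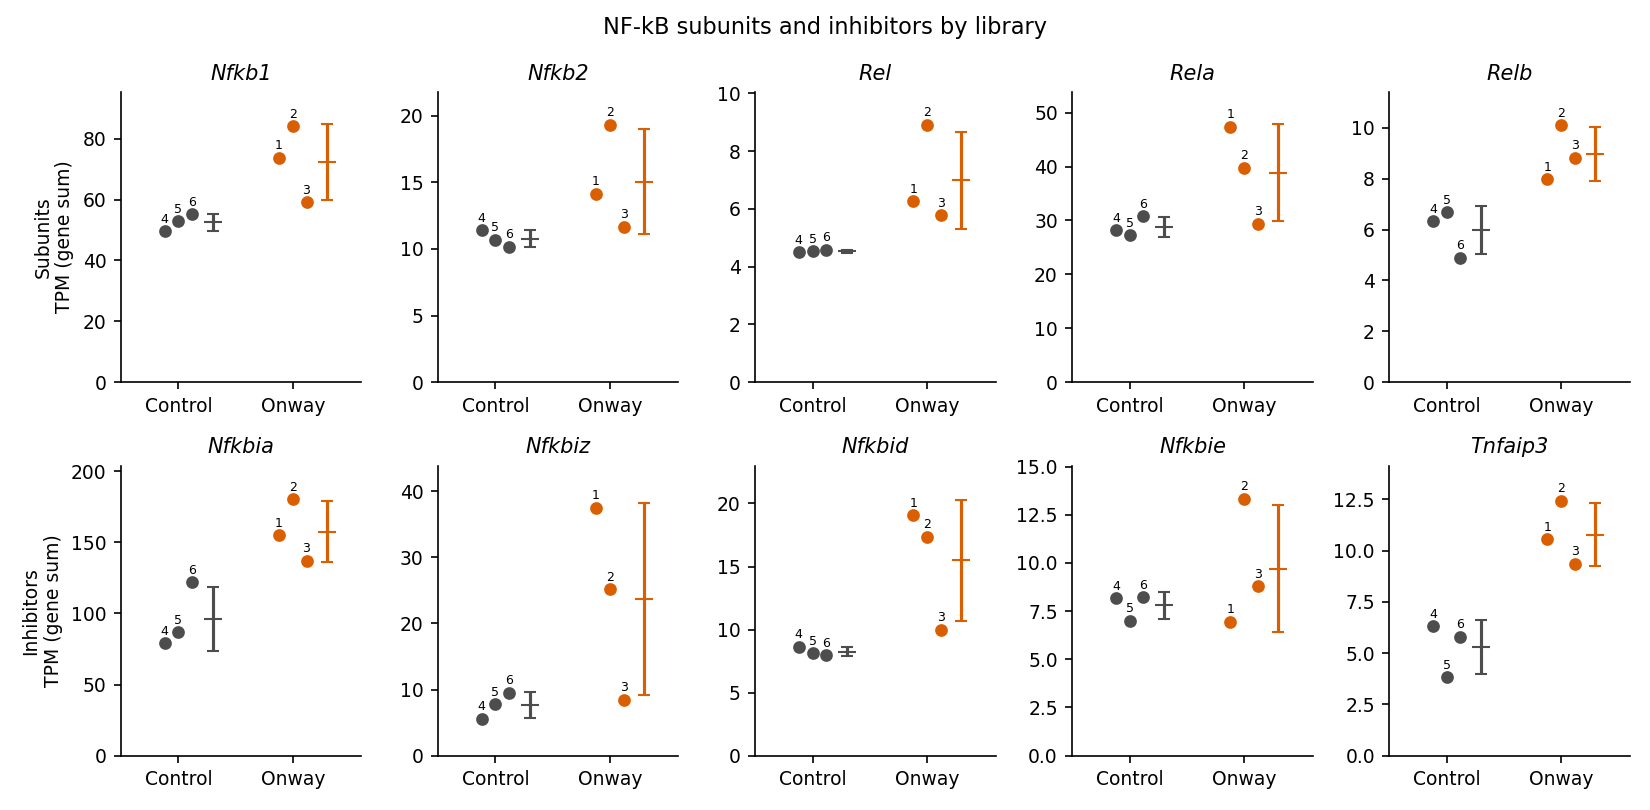
TPM of each of the 10 members in the 6 libraries, with numbered points for libraries and bars for group mean ± SD (n = 3). Onway 2 is the highest of the 6 libraries for 7 members and Onway 1 for 3, while Onway 3 is the lowest Onway library for 8.

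NF-kB is known to act on promoters of its own inhibitors, so the members' promoters were read. Entries among RefSeq promoters were found for 4 inhibitors and for the subunits Nfkb2, Rel and Rela. The 250 bases before each start were searched on both strands, with overlapping matches counted, for the NF-kB consensus motif, which is 10 bases long. A match was found for 6 of the 7 members with an entry, all 4 inhibitors (Nfkbia, Nfkbid, Nfkbie and Tnfaip3) and the subunits Nfkb2 and Rel, and none was found in the window of Rela. Over all genes with an entry 8.23% had a match, and over the tested genes with an entry 10.2%. Some genes have several windows, and counted by window 66.7% of 12 member windows and 7.25% of all windows had a match. The inhibitors were listed as genes that NF-kB is known to induce, so their share is no test. A match describes letters and is not a bound site. The windows shown are those of the inhibitor with the highest level (Nfkbia), the inhibitor that differed least (Nfkbie) and the least abundant subunit (Rel). They are from RefSeq on GRCm38.p6, written 5′ to 3′ on the strand of the gene and ending at the base before the start, with matches in capitals.
Nfkbia, chr12:55492648-55492897, minus strand: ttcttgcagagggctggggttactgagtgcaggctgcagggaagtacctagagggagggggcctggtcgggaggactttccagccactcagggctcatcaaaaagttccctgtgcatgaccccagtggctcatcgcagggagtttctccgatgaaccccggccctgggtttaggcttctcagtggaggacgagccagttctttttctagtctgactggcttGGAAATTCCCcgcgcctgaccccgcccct
Nfkbie, chr17:45555450-45555699, plus strand: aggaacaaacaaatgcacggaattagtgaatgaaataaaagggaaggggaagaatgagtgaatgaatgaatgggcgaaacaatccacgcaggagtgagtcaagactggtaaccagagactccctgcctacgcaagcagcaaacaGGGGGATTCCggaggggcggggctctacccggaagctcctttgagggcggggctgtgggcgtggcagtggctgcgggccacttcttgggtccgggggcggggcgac
Rel, chr11:23770970-23771219, minus strand: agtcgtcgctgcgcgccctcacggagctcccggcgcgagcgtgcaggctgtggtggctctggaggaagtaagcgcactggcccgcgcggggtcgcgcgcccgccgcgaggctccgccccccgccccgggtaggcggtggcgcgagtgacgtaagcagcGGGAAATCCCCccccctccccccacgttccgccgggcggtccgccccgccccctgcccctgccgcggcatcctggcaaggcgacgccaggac

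Counted from the start, the match of Nfkbia lay at -29 to -20 and that of Nfkbie at -106 to -97. The capitals of Rel are a pair of overlapping matches on opposite strands, at -92 to -83 and -91 to -82. Tnfaip3 had separate matches, GGGACACCCC at -125 to -116 and GGAAATCCCC, read on the other strand, at -12 to -3 of the first of its 2 starts. In Nfkbid the matches were GGGACTTCCC at -226 to -217 and GGAATTCCCC at -181 to -172 of the second of 3 starts. Nfkb2 had at least 1 match before each of its 3 starts. Nfkbie, with the smallest difference between the groups, thus had a match, as did Nfkbia, Nfkbid and Tnfaip3, while Nfkbiz was not searched.

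The genes of the members lie apart in the genome. On GRCm38 in GENCODE M21, Nfkb1 is on chromosome 3 (135584655 to 135691547, minus strand) and Rel on chromosome 11 (23736847 to 23770970, minus strand). Nfkb2 (46304320 to 46312385) and Rela (5637483 to 5648130) share chromosome 19, both on the plus strand. Chromosome 7 holds Relb (19606217 to 19629438, minus strand) and Nfkbid (30421732 to 30428746, plus strand). Nfkbia is on chromosome 12 (55489410 to 55492647, minus strand), Nfkbiz on chromosome 16 (55811375 to 55838899, minus strand), Nfkbie on chromosome 17 (45555703 to 45563169, plus strand) and Tnfaip3 on chromosome 10 (19000910 to 19015657, minus strand).

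Among the subunits, Nfkb1, whose protein is processed into a DNA-binding partner of Rela, was the most abundant by TPM summed over all its transcripts. It stood at 49.6, 53.0 and 55.2 TPM in the Control libraries (in the order 4, 5, 6), and at 73.7, 84.2 and 59.1 TPM in the Onway libraries (in the order 1, 2, 3), and values are given in this order throughout. The groups did not overlap, and Onway 3 lay nearest to Control. The log2 fold change of Nfkb1 was 0.44 ± 0.18 (SE), with an unadjusted 95% interval of 0.02 to 0.86 and an adjusted p of 0.35 (limma).

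Rela, the main transactivating subunit of the canonical pathway, was at 28.2, 27.3 and 30.8 TPM in Control and 47.4, 39.8 and 29.4 TPM in Onway. Here the groups overlapped, because Onway 3 lay below Control 6. Its log2 fold change was 0.40 ± 0.20 (SE; 95% interval -0.07 to 0.87; limma adjusted p = 0.46). Rel, the subunit c-Rel of blood cells, was the least abundant subunit, at 4.49, 4.53 and 4.59 TPM in Control and 6.27, 8.91 and 5.79 TPM in Onway. Its Control libraries were nearly equal, at 4.54 ± 0.0503 (SD, n = 3), whereas the Onway libraries spread over 6.99 ± 1.68. The groups of Rel did not overlap, with a log2 fold change of 0.51 ± 0.20 (SE; 95% interval 0.05 to 0.97; limma adjusted p = 0.32).

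Nfkb2 and Relb encode the partners of the non-canonical pathway, in which the Nfkb2 precursor is processed and released together with RelB. Nfkb2 was at 11.4, 10.7 and 10.2 TPM in Control and 14.2, 19.3 and 11.7 TPM in Onway, and Relb at 6.32, 6.69 and 4.90 TPM in Control and 7.97, 10.1 and 8.82 TPM in Onway. Neither gene overlapped between the groups. The log2 fold change was 0.42 ± 0.21 (SE; 95% interval -0.06 to 0.90; limma adjusted p = 0.44) for Nfkb2 and 0.52 ± 0.19 (SE; 95% interval 0.09 to 0.95; limma adjusted p = 0.27) for Relb. The Relb difference rested largely on newly assembled transcripts. With Ensembl transcripts alone it was 0.12 (limma adjusted p = 0.91). In GENCODE M21, Nfkb2 overlaps the antisense gene AC114539.1 by 1292 bases and Psd by 299 bases. The strandedness of the libraries was not given in the sources used here, so reads of these genes cannot be told apart within the shared bases.

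The subunits kept nearly the same proportions in both groups. Nfkb1 made up 51.2% ± 1.44 of the summed subunit TPM in Control and 50.9% ± 1.37 in Onway (SD, n = 3), and the ratio of Rela to Nfkb1 was 0.547 ± 0.0285 and 0.538 ± 0.0916. The within-library proportions of the 2 largest subunits therefore overlapped between the groups, while the levels of both had higher means in Onway.

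Among the inhibitors, Nfkbia, which encodes IkB-alpha and ends the response by carrying NF-kB out of the nucleus, was the most abundant member in both groups. The gene, with its promoter match at -29 to -20, was at 79.2, 86.9 and 121.8 TPM in Control and 155.0, 180.0 and 137.0 TPM in Onway. The groups did not overlap, although Control 6 and Onway 3 lay close to each other. The log2 fold change was 0.72 ± 0.22 (SE; 95% interval 0.22 to 1.23; limma adjusted p = 0.18), from means of 96.0 ± 22.7 and 157.3 ± 21.6 TPM (SD, n = 3).

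Tnfaip3 encodes a ubiquitin-editing enzyme that turns off signalling upstream of the IkB kinase. Its values were 6.30, 3.82 and 5.80 TPM in Control and 10.6, 12.4 and 9.36 TPM in Onway. Every Onway library was above every Control library, Onway 3 included. With a log2 fold change of 0.92 ± 0.22 (SE; 95% interval 0.41 to 1.42), it had the lowest adjusted p of the members, 0.081 (limma). That p was 0.041 after median-ratio scaling of the libraries and 0.038 after quantile normalization, settings in which 0.43% and 0.395% of tested genes were called higher, and 3.41% and 2.95% lower. Tnfaip3 thus passed the threshold under those scalings and missed it on TPM as deposited.

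Nfkbiz encodes a nuclear IkB protein that works as a co-activator of secondary response genes such as Il6, so it is an inhibitor by family rather than by that role. It had the largest log2 fold change of the members and also the largest SE. Its values were 5.62, 7.84 and 9.51 TPM in Control and 37.5, 25.1 and 8.48 TPM in Onway. Onway 3 lay within the Control range, so the groups overlapped, and the mean was 7.66 ± 1.95 in Control and 23.7 ± 14.6 in Onway (SD, n = 3). The log2 fold change was 1.32 ± 0.52 (SE; 95% interval 0.06 to 2.58; limma adjusted p = 0.35), and it was 0.89 without Onway 1.

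Nfkbid, the nuclear protein IkB-NS, was at 8.65, 8.12 and 7.97 TPM in Control and 19.1, 17.4 and 10.0 TPM in Onway. The groups did not overlap, and Onway 1 and Onway 2 stood well above Onway 3. Its log2 fold change was 0.79 ± 0.25 (SE; 95% interval 0.21 to 1.36; limma adjusted p = 0.20). Nfkbie, which encodes the cytoplasmic IkB-epsilon, differed least of all members. It was at 8.17, 7.0 and 8.22 TPM in Control and 6.96, 13.3 and 8.81 TPM in Onway. Onway 1 was the lowest of all libraries for this gene and Onway 2 the highest. The log2 fold change was 0.24 ± 0.24 (SE; 95% interval -0.32 to 0.80; limma adjusted p = 0.73), and 0.01 without Onway 2.

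**Figure D2:**
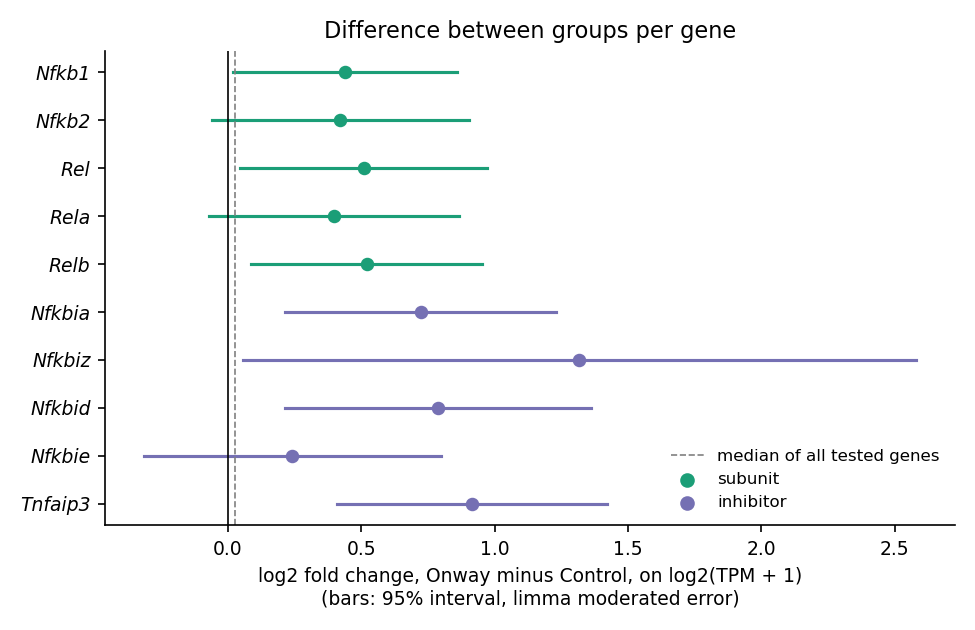
Log2 fold change of each member, Onway minus Control, with its unadjusted 95% interval, for subunits and inhibitors, and the median of all tested genes as a dashed line. All 10 estimates are above 0, from 0.24 for Nfkbie to 1.32 for Nfkbiz, and the intervals of Nfkb2, Rela and Nfkbie include 0.

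The order of levels, by TPM summed over all transcript types of a gene, was led by the same genes in both groups. In Control, Nfkbia was followed by Nfkb1, Rela, Nfkb2 and Nfkbid, with no overlap of ranges between neighbours. Below them, Nfkbid, Nfkbie, Nfkbiz, Relb, Tnfaip3 and Rel each overlapped the next in order. In Onway the ranges of Nfkbia, Nfkb1 and Rela were again separate, and from Rela down each gene overlapped the next, in the order Rela, Nfkbiz, Nfkbid, Nfkb2, Tnfaip3, Nfkbie, Relb and Rel. Nfkbiz, the seventh of the members by Control mean, was the fourth by Onway mean, a position that its values in Onway 1 and Onway 2 gave it.

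Subunits and inhibitors were then compared within each library, where the scaling of the library cancels. The summed subunit TPM was 100, 102.2 and 105.6 in Control and 149.5, 162.4 and 114.8 in Onway. The summed inhibitor TPM was 107.9, 113.7 and 153.3 in Control and 229.1, 248.3 and 173.7 in Onway. Both sums were higher in every Onway library than in any Control library, the subunits by a ratio of means of 1.39 and the inhibitors by 1.74. The ratio of inhibitors to subunits was 1.08, 1.11 and 1.45 in Control and 1.53, 1.53 and 1.51 in Onway. The 3 Onway libraries were thus alike in this ratio although their sums differed, and Control 6 lay much nearer to them than to Control 4 and Control 5. The difference of mean log2 ratios was 0.34, and the pooled SD within groups was 0.17. No test was made on this ratio, since it is a score over members that were chosen with results known.

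**Figure D3:**
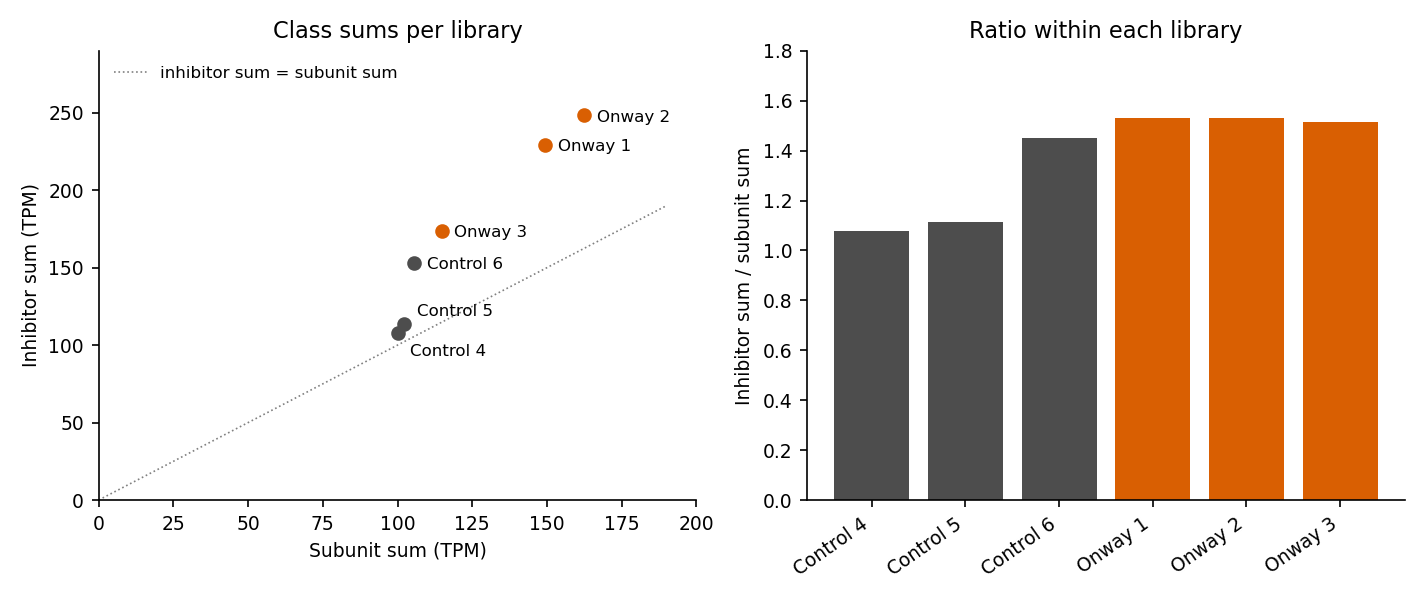
Summed TPM of the 5 inhibitors against the summed TPM of the 5 subunits in each library, and the ratio of the sums by library. The Onway ratios lie between 1.51 and 1.53, and Control 6, at 1.45, lies above the other Control libraries.

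Nfkbia carried most of the inhibitor sum, 76.4% ± 3.05 in Control and 73.0% ± 5.64 in Onway (SD, n = 3). The other 4 inhibitors together were at 28.7, 26.8 and 31.5 TPM in Control and 74.1, 68.3 and 36.6 TPM in Onway. Without Nfkbia, Onway 3 was therefore close to Control 6, while Onway 1 and Onway 2 were far above. Within the inhibitors, the ratio of Nfkbiz to Nfkbia was 0.071, 0.0902 and 0.0781 in Control and 0.242, 0.140 and 0.0619 in Onway. Onway 3 had the lowest of these ratios and Onway 1 the highest, so the Onway libraries differed in the makeup of the inhibitors. The size of the difference in Onway 3 also varied by member. Its level over the Control mean was 1.02 for Rela, 1.08 for Nfkb2 and 1.11 for Nfkbiz, and 1.43 for Nfkbia, 1.48 for Relb and 1.76 for Tnfaip3.

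The deposited table carries a group mean for each transcript, and their decimals are those of means of 4 values. The authors' deposited means put the summed subunits at 102.3 TPM (Control) and 137.7 TPM (Onway). For the summed inhibitors the authors' deposited means were 125.2 and 191.8 TPM. What these means leave beyond the 3 libraries of a group, a remainder computed here and not analysed as a library, had an inhibitor sum of 125.8 TPM for Control and 116 TPM for Onway. The ratio of inhibitors to subunits was 1.22 (Control) and 1.39 (Onway) in the authors' deposited means, and 1.24 and 0.934 in the remainder. The inhibitor sum and the ratio of the remainder thus had the opposite order to the 3 libraries, and the Onway remainder had a lower ratio than any Control library. In the authors' deposited means, Nfkbiz was at 13.6 TPM (Control) and 20.5 TPM (Onway), with remainders of 31.5 and 10.9 TPM. For Tnfaip3 the authors' deposited means were 7.23 and 9.70 TPM, with remainders of 13 and 6.46 TPM. Both remainders thus ran opposite to the direction seen in the 3 libraries, higher for Control than for Onway. For Nfkbia, the remainders from the authors' deposited means, 62.5 and 73.3 TPM, were both below every library of the test. They kept the direction seen in the 3 libraries, as did the remainders of Nfkbid (12.1 and 17.7 TPM) and Nfkbie (6.72 and 7.64 TPM). The summed subunit remainders from the same deposited table were 101.2 TPM for Control and 124.3 TPM for Onway, in the direction seen in the 3 libraries. Among them, the remainders of Nfkb1 were 47.2 and 64.5 TPM. Those of Rela were nearly equal, at 35.5 and 35.6 TPM, and the Control value lay above every Control library.

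Transcript values were described without a test, since assigning short reads to transcripts of 1 gene is uncertain. The coding transcript Nfkbia-201 was at 63.7, 69.5 and 100.7 TPM in Control and 114.1, 139.6 and 107.0 TPM in Onway. Nfkbia-202, annotated as a retained intron, was at 12.04, 14.43 and 16.6 TPM in Control and 31.3, 31.1 and 24.4 TPM in Onway. Both forms of Nfkbia were higher in every Onway library than in any Control library. As a share of the gene, the retained intron form was 15.2%, 16.6% and 13.6% in Control and 20.2%, 17.3% and 17.8% in Onway, again with no overlap. In Nfkbid the retained-intron share averaged 4.88% in Control and 10.99% in Onway, with no overlap, whereas in Nfkb1 it was lower, 34.2% and 28.2%. Of 8 members with such a transcript, 2 had a higher share in Onway without overlap, 1 a lower share and 5 overlapped. Among all genes compared, 8.07% had a higher share without overlap and 5.52% a lower one. Transcripts with a retained intron took 3.01%, 3.02% and 3.15% of all TPM in Control and 3.46%, 3.81% and 2.91% in Onway, and their part in the member values was not tested.

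For Rela, the coding transcript Rela-201 was at 20.2, 20.8 and 20.9 TPM in Control and 25.6, 27.3 and 20.3 TPM in Onway. The retained intron transcript Rela-203 was at 4.80, 5.50 and 8.50 TPM in Control and 17.1, 10.6 and 6.81 TPM in Onway. Rela-203 was thus highest in Onway 1 and Rela-201 in Onway 2. In Nfkbiz, transcripts newly assembled by the authors made up 17.4% of the gene in Control and 32.8% in Onway on average. The most abundant annotated form, Nfkbiz-204, was at 4.76, 5.71 and 7.93 TPM in Control and 24.2, 15.2 and 6.21 TPM in Onway, and so repeated the order of the gene. For Relb, the newly assembled transcripts averaged 15.8% in Control and 36.6% in Onway, with 57.8% in Onway 1 and 15.3% in Onway 2. Rel had 1 transcript in the table.

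**Figure D4:**
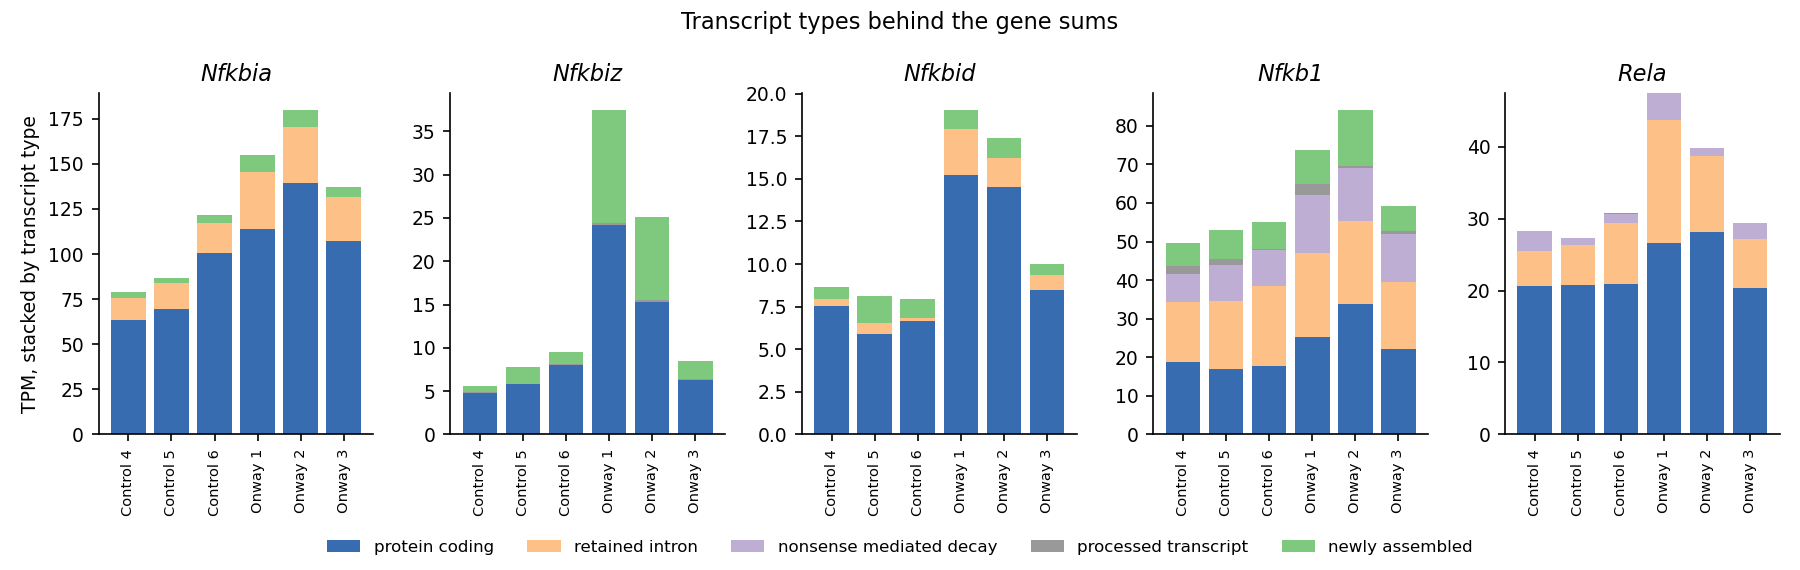
TPM of Nfkbia, Nfkbiz, Nfkbid, Nfkb1 and Rela in each library, stacked by the type of transcript. Retained-intron forms are the second part of Nfkbia in every library, and newly assembled forms take a larger share of Nfkbiz in Onway (32.8%) than in Control (17.4%).

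Genes acting before and after the members were counted from lists chosen by function. Of 7 tested ligand genes, 0 were called higher and 1 lower (limma). That gene, Il1a, which encodes an interleukin 1 of tissue and myeloid cells, fell from 4.86, 3.67 and 3.03 TPM to 0.42, 0.46 and 0.43 TPM (log2 fold change -1.74, adjusted p = 0.0052). It lost its call without both Control 4 and Onway 3 (adjusted p = 0.054). Il1b, the ligand of the same receptor made by activated myeloid cells, was at 22.1, 126.6 and 48.4 TPM in Control and 474.8, 353.0 and 75.0 TPM in Onway. Its groups overlapped (adjusted p = 0.41), with Onway 3 again the lowest Onway library. Tnf, another inducer of the pathway, was at 3.57, 1.96 and 4.50 TPM in Control and 9.94, 7.14 and 4.74 TPM in Onway (adjusted p = 0.25).

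Of 20 tested receptor genes, 19 had positive log2 fold changes (median 0.56), 0 were called higher and 8 were higher at an unadjusted p under 0.05 (limma). Il1r1, the signalling receptor of interleukin 1, was the 1 called lower, from 2.86 ± 0.444 to 0.983 ± 0.0710 TPM (SD, n = 3; adjusted p = 0.049), and it lost the call when any single library was left out (adjusted p 0.061 to 0.19). With all libraries, Il1r1 also lost it without a filter on low values (limma adjusted p = 0.056). The same held without haemoglobin genes (0.083) and after quantile normalization (0.056). Tnfrsf13b, a receptor of B cells for the survival factor BAFF, had 31.6 ± 2.30 TPM in the Control libraries and 53.9 ± 10.3 TPM in the Onway libraries (SD, n = 3; adjusted p = 0.11). Of 32 adaptors and kinases 0 were called, 3 were higher at an unadjusted p under 0.05 and 30 had positive values, with a median of 0.26. These 3 were Rnf31 of the linear ubiquitin ligase complex (log2 fold change 0.71), the protease Malt1 (0.65) and Map3k14, the kinase of the non-canonical pathway (0.65). Of 13 other regulators 0 were called, 0 passed the unadjusted threshold in either direction, and the median was 0.07. The median of the 10 members, 0.51, lay below that of the receptors and above those of the adaptors and kinases and of the other regulators, and these differences were not tested.

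Of 25 tested target genes, 1 was called higher and 1 lower (limma), with a median of 0.25 on the log2 scale. Cxcl2, a chemokine that attracts neutrophils, rose from 0.39, 1.82 and 4.14 TPM to 468.4, 179.7 and 52.4 TPM (log2 fold change 5.93, adjusted p = 0.035). It lost its call when Control 4, Control 5, Control 6, Onway 1 or Onway 2 was left out (adjusted p 0.059 to 0.18). Cxcl2 also lost it with a pseudocount of 0.1 TPM (limma adjusted p = 0.06) and with a mean of at least 5 TPM (0.063). The same held without both Control 4 and Onway 3 (0.054). Vcam1, an adhesion molecule of stroma and marrow macrophages, fell from 86.7 ± 16.5 to 34.1 ± 0.990 TPM (SD, n = 3; log2 fold change -1.31, adjusted p = 0.009), and lost its call without Onway 2 (adjusted p = 0.055) and without both Control 4 and Onway 3 (adjusted p = 0.063). Ccl3 and Ccrl2, a chemokine and a chemokine-binding receptor, did not overlap between the groups (log2 fold changes 2.31 and 1.85, adjusted p = 0.068 and 0.072). Without Onway 3, 6 targets were called higher and 1 lower. The targets thus held larger single differences than the members did, in the chemokines, beside a smaller median.

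Immediate early genes, which are switched on within minutes of many stimuli, also stood higher in Onway than in Control. Of 17 tested, 6 were called higher and 0 lower (limma), and all 17 had positive values, with a median of 1.54. The count called higher was 3 without Onway 2 and 11 without Onway 3. Their summed TPM was 310.7, 321.0 and 446.5 in Control and 2848, 2087 and 1132 in Onway. Control 6 was the highest Control library and Onway 3 the lowest Onway library, as for most members. The sum was highest in Onway 1, whereas Onway 2 was the highest library for 7 members and Onway 1 for 3. Their part in the member differences was not tested. In the remainder from the authors' deposited means, the same sum was 1293 TPM for Control and 601.8 TPM for Onway, the order in which the remainders of Nfkbiz and Tnfaip3 also stood.

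**Figure D5:**
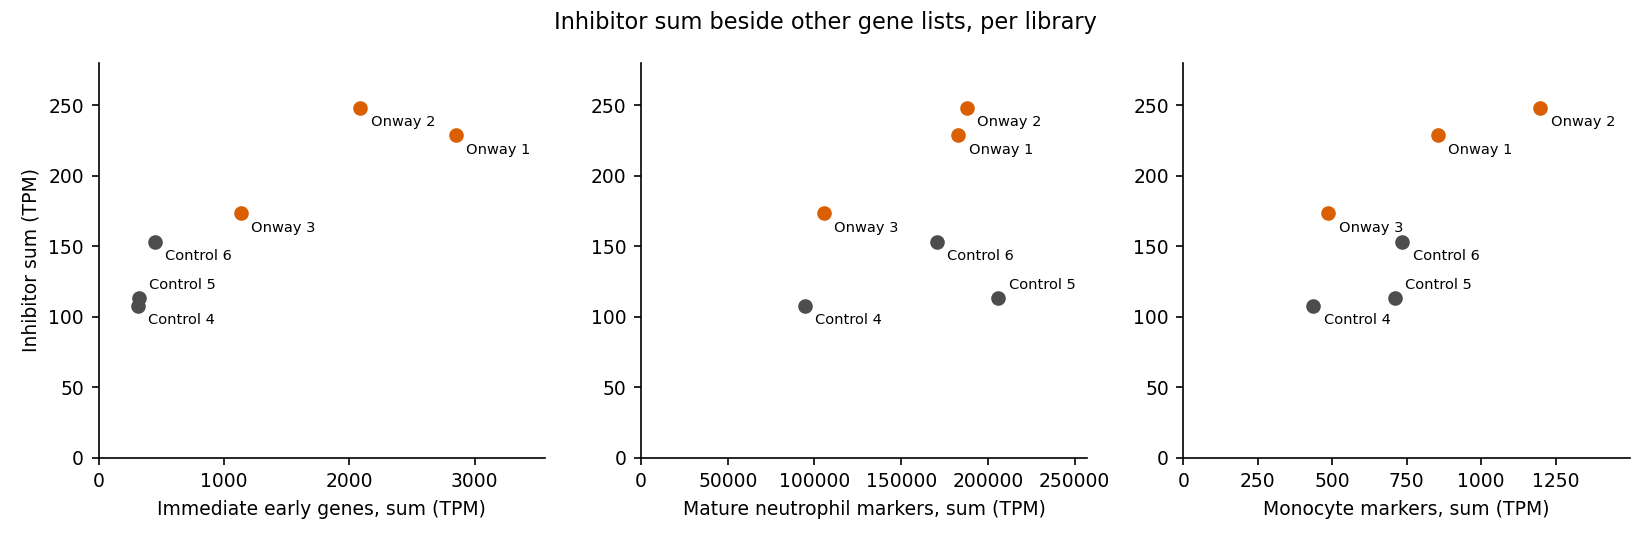
Summed inhibitor TPM of each library (vertical axis) against the summed TPM of immediate early genes, mature neutrophil markers and monocyte markers (horizontal axes). Onway 3, with the lowest inhibitor sum of its group (173.7 TPM), is also lowest of its group for immediate early genes (1132 TPM), neutrophil markers (105400 TPM) and monocyte markers (486.8 TPM).

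The makeup of the libraries differed in ways that touch these comparisons, and in bulk marrow fewer cells of a type and less RNA per cell cannot be told apart. Haemoglobin genes took 26.6%, 11.6% and 18.3% of TPM in Control and 13.3%, 9.38% and 33.9% in Onway, so Onway 3 had the highest share. Markers of erythroid cells and neutrophils were abundant in every library, as the label bone marrow implies. Of 9 mature neutrophil markers and 6 monocyte markers 0 were called in either direction (limma), and at an unadjusted p under 0.05 there were 0 and 1. The summed monocyte markers were 435.5 to 735.1 TPM in Control and 486.8 to 1199 TPM in Onway, lowest of its group in Onway 3. The summed mature neutrophil markers were 94390 to 205900 TPM in Control and 105400 to 187900 TPM in Onway, again lowest of its group in Onway 3. Both of these sums overlapped between the groups. Tissue macrophage markers were summed at 225.2 to 362.6 TPM in Control and 120.5 to 153.4 TPM in Onway. For 6 of these 7 genes Onway was lower without overlap, against 11.5% of all tested genes. The 1 called lower was Vcam1, the same gene and call as among the targets above. All 5 neutrophil precursor markers had negative log2 fold changes (median -0.91) and 0 were called, with 1 lower at an unadjusted p under 0.05. All 7 B lineage markers had positive values (median 1.31), of which 0 were called and 4 were higher at an unadjusted p under 0.05, with sums of 130.8 to 195.8 TPM in Control and 180.8 to 599.0 TPM in Onway. Of 3 tested dendritic cell markers all were higher at an unadjusted p under 0.05 and 1 was called (summed 8.03 to 16.6 TPM against 18.2 to 29.7 TPM). All 7 megakaryocyte and platelet markers were called lower in Onway (summed 1860 to 2107 TPM against 91.8 to 145.4 TPM). Of 6 markers each, 5 were called lower for skeletal muscle (413.5 to 2668 against 2.00 to 6.01 TPM), stroma and bone (542.9 to 1155 against 32.3 to 49.6 TPM) and endothelium (51.6 to 59.2 against 21.9 to 28.4 TPM). No marker was at 0 in all libraries. The part of these cell types in the member differences was not tested. With TPM rescaled without haemoglobin genes, 0 members were called and all 10 values were again positive, with 0.74 for Nfkbia (limma adjusted p = 0.11) and 0.81 for Nfkbid (adjusted p = 0.086).

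The genes whose pattern was most like the mean of the inhibitors were found among 6924 genes averaging 10 TPM or more. Likeness was the root mean square difference between centred log2(TPM + 1) profiles over the 6 libraries, for which the median gene had 0.456. The nearest were Ssh2 (0.062), Ncoa3 (0.076), Cyfip2 (0.086), Rnf31 (0.087), Lmtk2 (0.088) and Malt1 (0.09). None of these 6 was called (limma adjusted p from 0.073 for Ncoa3 to 0.21 for Ssh2 and Lmtk2). Ssh2, for instance, was at 15.9, 15.7 and 21.2 TPM in Control and 34.0, 38.5 and 21.5 TPM in Onway. Of the inhibitors themselves, each a part of that mean, Nfkbid (0.137), Nfkbia (0.173) and Tnfaip3 (0.21) lay nearer to it than Nfkbie (0.394) and Nfkbiz (0.514). The subunits Nfkb1 (0.207), Rel (0.218), Rela (0.231), Nfkb2 (0.246) and Relb (0.326) also lay nearer to the inhibitor mean than Nfkbie and Nfkbiz. Against the mean profile of the subunits, of which each subunit is a part, Nfkb1 (0.0579), Rel (0.0726) and Nfkb2 (0.0804) were nearest, and Rela (0.165) and Relb (0.157) farther.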

How the data were processed

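RNA-seq libraries of bone marrow were made, 3 per group, from column-purified RNA with a SMARTer kit, per the labels' protocols. The authors deposited TPM per transcript (158850 transcripts, 142434 with Ensembl identifiers and 16416 newly assembled) and group means of TPM. Builds are GRCm38 and mm10, per the submitters' processing notes. Aligner, quantifier and strandedness were not given in the sources used here. TPM keeps no depth, so the number of reads is unknown and no counting interval is given.

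Onway columns were matched to titles by their number, and 0 columns were unmapped. Every deposited mean could be a mean of 4 values with the deposited decimals. Of the Control means 71142, and of the Onway means 69692, could not be means of 3. The remainder was 4 times the mean less the 3 libraries of the group, and it totalled 1e+06 TPM in each group.

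Transcript TPM were summed to genes. Genes averaging 1 TPM or more were fitted as log2(TPM + 1) with limma 3.58.1 (trend, robust) in R 4.3.3, with the 6 libraries in 1 fit and without covariates. Tests were two-sided, with Benjamini-Hochberg adjustment over all 14192 tested genes and a threshold of 0.05. In data simulated for this comparison on 14192 genes, 32%, 74%, 94% and 98% of 50 genes each with log2 changes of 1, 2, 3 and 4 were recovered, with 6 false calls. The changed genes were drawn from those above 3 in mean log2(TPM + 1). The simulated spread was independent between genes and between libraries. Alternatives were other pseudocounts, filters, scalings, moderation, transcript sets and left-out libraries.

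The members and lists were chosen with earlier results of these data known. Genes named beside the members are, of each list, all called (at most 6) or the 4 with the smallest p, of which some are printed, and the 6 most like the mean inhibitor profile. Cell type markers are given by list only, apart from Vcam1, which is also on the list of targets.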

Additional observations from a re-analysis of the deposited data

How the results depend on the processing

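All 150 recomputed member values (15 settings for each of the 10 members) were positive, and 6 passed the threshold. The count of members called higher was 0 in 11 settings, 1 after median-ratio scaling and 1 after quantile normalization (Tnfaip3), and 2 without both Control 4 and Onway 3 (Nfkbiz, log2 fold change 1.72, adjusted p = 0.039, and Nfkbid, 1.09, adjusted p = 0.042, limma). Leaving out 1 library gave 0 to 2, with 2 without Onway 3. No member was called lower in any setting. The number of all genes called higher was 33 on TPM as deposited, 20 with a mean of at least 5 TPM, 61 after median-ratio scaling, 56 after quantile normalization and 98 without both Control 4 and Onway 3. It was 17 (without Onway 2) to 87 (without Control 4) when 1 library was left out, and 72 without Onway 1 or Onway 3. The number called lower was 424, then 183 with a mean of at least 5 TPM, 213 without both libraries, and 249 (without Onway 2; 254 without Onway 3) to 481 when 1 library was left out. The difference of log2 ratios of inhibitors to subunits was 0.34, 0.52 with Nfkbia left out of its sum, and 0.26 to 0.48 when 1 library was left out. The cause of these shifts was not tested, and some of the settings also held fewer genes or libraries. Under the scalings the median log2 fold change of all genes was 0.02 to 0.03.

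No paired analysis was possible because the groups share no replicate number (1 to 3 in Onway, 4 to 6 in Control). The read depth is unknown, so what depth limits could not be computed. In the simulation 32% of genes with a log2 change of 1 were recovered. That figure is for genes above 3 in mean log2(TPM + 1) with independent spread, and it was not computed for the members. Only Nfkbiz among the members had a log2 fold change above 1. Why the members were not called was not tested.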
